A study of Homo sapiens with 4 samples.

Results

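RMRP, the RNA subunit of the endoribonuclease RNase MRP, and the mRNAs of 9 of its protein subunits were followed across 4 RNA libraries that differ in when reverse transcription (RT) was done. The 10 genes, RMRP, POP1, POP4, POP5, POP7, RPP14, RPP25, RPP30, RPP38 and RPP40, were taken by symbol from the 33640 genes in the count files, and all 10 had counts in every library. They were selected on values of these same libraries, since the ratio of RMRP after over before tagmentation had been seen to stand out. The values of RMRP are therefore a description, with no test, and support nothing.

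RNase MRP is a nucleolar ribonucleoprotein whose RNA forms the catalytic centre and which cuts the precursor of ribosomal RNA in its first internal transcribed spacer. It is a relative of RNase P, the enzyme that removes the leader of tRNA precursors, and most protein subunits belong to both enzymes. RMRP is made by RNA polymerase III from a promoter that lies upstream of the gene, its transcripts end in a short run of U, and variants in the gene cause cartilage-hair hypoplasia.

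The cells were H9, an established line of primed human pluripotent stem cells, grown in Essential8 medium on Geltrex, with no other allele or agent named. In all 4 libraries nuclei were extracted and lightly fixed with formaldehyde, and RNA was captured in the nuclei with a poly-T primer. The 4 conditions were RT before Tn5 tagmentation (Pre) or after it (Post), each with RNA only (RNA-alone) or jointly with DNA at H3K27me3 and H3K27ac (joint), and the comparison asks whether the order of the steps and the added DNA profiling alter the RNA profile. Each of the 4 was made once, so no difference has a replicate check. Whether they came from separate cultures, and which of the Tn5 steps the RNA-alone libraries had, is not given in the sources used here. Batch and condition cannot be told apart, and a change in the amount of an RNA cannot be told apart from a change in how well it was captured.

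Total counts were between 6368721 and 10089552 per library, so that 3 counts, the limit that a count of 0 allows, correspond to 0.297 to 0.471 RPM (reads of a gene scaled to the library total). All 13 markers of primed pluripotent cells were above 10 RPM in each library, with sums between 2609 and 3615 RPM. The 12 markers of other cells summed to between 15.1 and 24.1 RPM, and TBXT, SOX17, SOX1 and DPPA5 had 0 counts in 3 of the libraries. The highest of the 12 by mean were COL1A1 at 7.38 to 10.8 RPM, FOXA2 at 2.04 to 4.46 RPM and GATA4 at 1.57 to 4.76 RPM. The 6 genes with clone-based names, FP236383 or FP671120, took 34.8% of the counts of RNA-alone Post and 10.7% to 15.8% of those of the other libraries, which moves the RPM of every other gene. Ratios are therefore also given on a log2 scale of RPM + 1, relative to the median of the 11564 genes that averaged at least 10 RPM over the libraries. This is called the relative log2 ratio. A gene was called where it was at least 2-fold apart on that scale at that mean. The median gene itself stood at −0.44 for Post over Pre in the RNA-alone pair and at −0.09 in the joint pair. For joint over RNA-alone it stood at 0.03 in Pre and 0.38 in Post. Intervals are exact 95% intervals, apart from those of a difference between pairs (a normal approximation), and cover counting error only.

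The RMRP gene is annotated as a ribozyme on the minus strand of chromosome 9, chr9:35657754-35658017 in GRCh38, and consists of a single exon of 264 bases. Its sequence is shown because every RNA in these libraries was primed with a run of 15 T, and the capitals mark its longest runs of A.
RMRP: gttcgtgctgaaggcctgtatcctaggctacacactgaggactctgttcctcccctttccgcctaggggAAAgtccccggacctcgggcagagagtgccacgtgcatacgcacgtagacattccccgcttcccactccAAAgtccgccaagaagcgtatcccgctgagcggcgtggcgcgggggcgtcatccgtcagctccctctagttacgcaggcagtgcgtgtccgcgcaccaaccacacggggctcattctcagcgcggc
The longest run of A in RMRP was 3 bases, and it occurred at 2 places. Among the longest annotated transcripts of 9705 protein-coding genes past the same limit of mean RPM, 86.8% had a run of 4 or more A within their last 264 bases, with a median longest run of 5. Among the protein subunits the longest run in that window was between 3 and 12 bases, with 3 in POP5 and RPP25 and 12 in POP1. These counts leave out the poly(A) tail, which the annotation does not hold, and where on the transcripts the primer annealed was not tested.

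RMRP lies head to head with CCDC107, a protein-coding gene on the plus strand at chr9:35658290-35661511. The stretch between them, chr9:35658018-35658289, is 272 bases long and is shown on the RMRP strand, ending at the base before RMRP, because it holds the elements typical of this kind of promoter. The capitals mark the octamer ATTTGCAT and the TATA-like motif TATAAA.
Stretch between RMRP and CCDC107: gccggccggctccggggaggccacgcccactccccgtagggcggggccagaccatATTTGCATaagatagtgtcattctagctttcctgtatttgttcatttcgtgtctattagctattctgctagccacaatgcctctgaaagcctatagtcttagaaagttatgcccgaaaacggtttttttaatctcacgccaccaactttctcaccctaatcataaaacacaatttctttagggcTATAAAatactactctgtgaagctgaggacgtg
Each motif was searched on both strands and was present once, without overlap. The octamer ended 209 bases before RMRP, and TATAAA ended 27 bases before it. Among 35116 RefSeq promoter windows of 300 bases, 1.77% held ATTTGCAT, 11.5% held TATAAA and 0.345% held both. Neither motif was present in the windows of the 8 protein subunit genes that had one. Downstream of RMRP, the first 30 bases at chr9:35657724-35657753 held a run of 6 T that began 2 bases after the annotated end.
After RMRP: tgTTTTTTgttcccgagaccacggctcact

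RMRP was the most variable of the 10 genes across the libraries. It had 1254 counts, or 134 RPM (interval 126 to 141), in RNA-alone Pre and 505 counts, or 56.4 RPM (51.5 to 61.5), in joint Pre. It had 4160 counts, or 653 RPM (633 to 673), in RNA-alone Post and 5118 counts, or 507 RPM (493 to 521), in joint Post. Both Post libraries lay above both Pre libraries, and the 4 intervals did not overlap. In bulk libraries such as these, fewer cells with an RNA and less of it per cell cannot be told apart. By RPM, which is not corrected for gene length, RMRP ranked 1496 and 4149 among the 33640 genes in RNA-alone Pre and joint Pre. It ranked 41 in RNA-alone Post and 133 in joint Post.

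The protein subunit mRNAs lay between 4.26 and 36.2 RPM and varied less across the libraries. POP1, the largest protein and the scaffold of the complex, had 27.6 RPM in RNA-alone Pre and 27.8 RPM in joint Pre, then 15.2 RPM in RNA-alone Post and 22.7 RPM in joint Post. The interval of RNA-alone Post, 12.4 to 18.6 RPM, lay below those of the other libraries. RPP25 and POP7 pair with each other and bind the P3 stem of the RNA. RPP25 had 6.61 and 5.91 RPM in the Pre libraries without and with DNA profiling, and 6.59 and 4.26 RPM in the Post libraries, with overlapping intervals. POP7 had 9.49 and 13.4 RPM in the same Pre libraries and 11.1 and 7.14 RPM in the Post libraries. Its highest and lowest values, both with DNA profiling, had intervals of 11.1 to 16.0 and 5.58 to 8.99 RPM that did not overlap.

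POP5, RPP14, RPP30 and RPP40 form a subcomplex of the protein shell. POP5, a small subunit, had 9.06 and 8.59 RPM in the Pre libraries without and with DNA profiling and 8.01 and 6.94 RPM in the Post libraries, with overlapping intervals. RPP14, a relative of POP5, had 33.6 and 36.2 RPM in the Pre libraries and 22.5 and 24.98 RPM in the Post libraries. Both Post intervals, up to 26.4 and 28.3 RPM, lay below both Pre intervals, which began at 29.98 and 32.3 RPM. RPP14 overlaps HTD2, which encodes a mitochondrial enzyme of fatty acid synthesis, on the same strand of chromosome 3 (chr3:58306245-58324695 and chr3:58306262-58320193), so the split of reads between them is uncertain. RPP30, the most even member, had 29.5 and 29.5 RPM in the Pre libraries and 25.1 and 29.0 RPM in the Post libraries, and its intervals overlapped. RPP40 had 5.44 and 7.70 RPM in the Pre libraries and 5.34 and 4.26 RPM in the Post libraries, and only the 2 libraries with DNA profiling had intervals apart.

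POP4 and RPP38 are further RNA-binding subunits, and RPP38 belongs to the L7Ae family of proteins. POP4 had 6.08 and 6.36 RPM in the Pre libraries without and with DNA profiling and 5.02 and 5.95 RPM in the Post libraries. RPP38 had 35.0 and 33.0 RPM in the Pre libraries and 26.7 and 27.2 RPM in the Post libraries. All intervals of POP4 overlapped, while that of RPP38 in RNA-alone Pre, which began at 31.3 RPM, lay above both Post intervals, which ended at 31.0 and 30.6 RPM. RPP38 overlaps NMT2 and the lncRNA gene RPP38-DT, both on the opposite strand, and the strand setting of the counting is not given in the sources used here. RPP38-DT had 3 counts in RNA-alone Pre, 2 in joint Post and 0 in the others. A Y_RNA gene within RPP30 and LYRM4-AS1 across RPP40, again on opposite strands, are not among the symbols in the files used here.

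**Figure D1:**
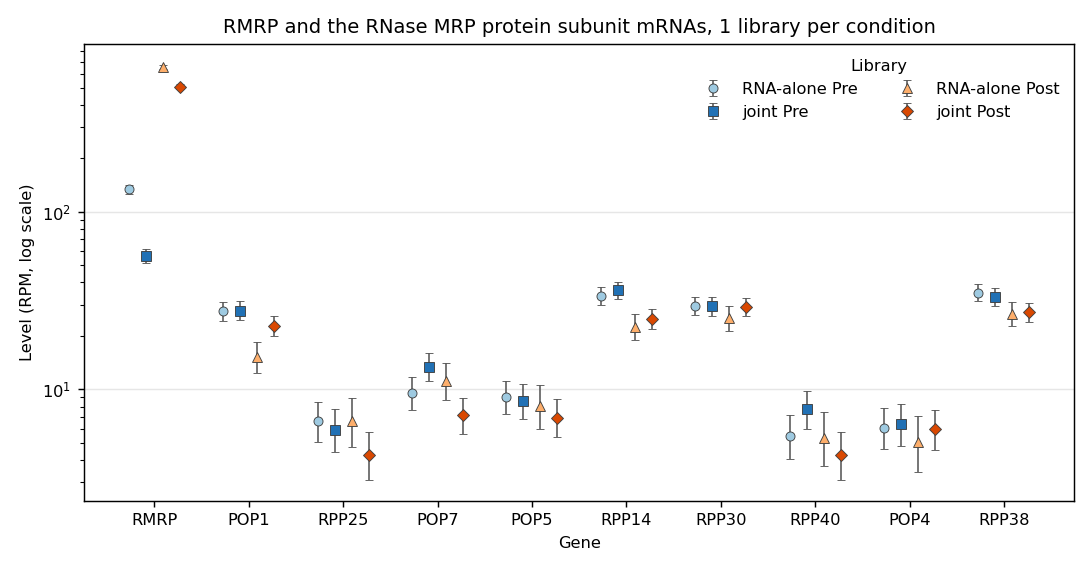
Level of each of the 10 genes in RPM (log scale) in the 4 libraries, 1 point per library, with exact 95% intervals of the counts. RMRP lies at 56.4 to 653 RPM with both Post libraries on top, while the protein subunits lie between 4.26 and 36.2 RPM.

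To set the levels of the genes against each other, RPM was divided by the exon length. RMRP was then at 506 and 213 RPM per kb in the Pre libraries without and with DNA profiling, and at 2474 and 1921 RPM per kb in the Post libraries. RPP38 came next in all 4 libraries, at 13.8 to 18.1 RPM per kb, and POP4 was lowest, at 1.17 to 1.48 RPM per kb. RMRP exceeded RPP38 per kb by 27.9-fold and 12.5-fold in the Pre libraries and by 179-fold and 137-fold in the Post libraries. After RPP38 came POP7 and RPP30 in each library, and then POP1, POP5, RPP14, RPP25 and RPP40 in an order that differed between libraries. Of the 9 neighbouring pairs in the order, 3 to 4 per library had intervals that did not overlap, and the rest could not be told apart by their counts. With division by the whole gene span, introns included, POP7 took the place after RMRP in every library. These comparisons rest on annotated lengths, and whether reads in introns were counted is not given in the sources used here. The RNA was primed with a run of T, so counts need not grow with length, which was not tested. Division by length raises RMRP, the shortest gene, the most. On plain RPM, RMRP was at 56.4 to 653 RPM and RPP38 at 26.7 to 35.0 RPM, so the folds per kb are not ratios of molecules.

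The counts of RMRP were also set against the summed counts of the 9 protein subunits of the same library, a ratio that does not depend on the library total. The subunits had 1523 counts in RNA-alone Pre, 1509 in joint Pre, 800 in RNA-alone Post and 1336 in joint Post. RMRP had 0.823 counts per subunit count (interval 0.763 to 0.888) in RNA-alone Pre and 0.335 (0.302 to 0.370) in joint Pre. In RNA-alone Post it had 5.20 (4.82 to 5.62), and in joint Post 3.83 (3.61 to 4.07). RMRP thus had fewer counts than the summed subunits in both Pre libraries and more in both Post libraries.

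**Figure D2:**
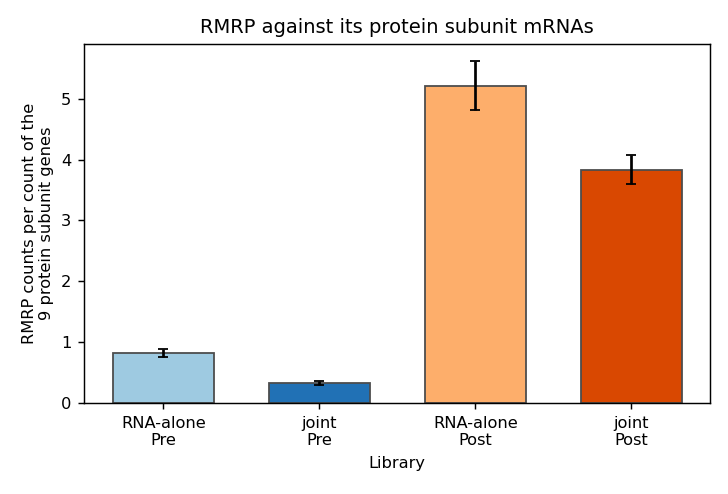
Counts of RMRP divided by the summed counts of the 9 protein subunit genes, 1 bar per library, with exact 95% intervals of the ratio of counts. The Pre bars stand at 0.823 and 0.335 and the Post bars at 5.20 and 3.83.

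When RT followed tagmentation, RMRP was 4.89-fold higher in RPM (interval 4.585 to 5.21) in the RNA-alone pair and 9.001-fold higher (8.21 to 9.88) in the joint pair. Its relative log2 ratios were 2.72 (2.63 to 2.81) and 3.24 (3.11 to 3.37). By size these ranked 5 and 1 among the 11564 genes. RMRP was called higher in both pairs, where 1.33% and 0.156% of all genes were called higher and nothing is read from its count, as these values chose the genes. Altogether 17 genes, RMRP among them, were called higher in both pairs, and 0 were called lower in both.

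None of the protein subunits was called in either pair. Of the 9, 5 had a mean of at least 10 RPM (POP1, POP7, RPP14, RPP30 and RPP38) and could be called, and 4 (POP4, POP5, RPP25 and RPP40) lay below it and are given by value only. At least 2-fold lower were 0.0519% of all genes in the RNA-alone pair and 0.0951% in the joint pair, so a count of 0 among 5 genes is near the background. In the RNA-alone pair the median relative log2 ratio of the 9 was 0.21 (−0.23 without subtraction of the median gene), with values from −0.38 for POP1 to 0.65 for POP7, and 7 of 9 lay above the median gene. In the joint pair the median was −0.19 (−0.28 without subtraction), from −0.73 for POP7 to 0.07 for RPP30, and 2 of 9 lay above the median gene. Over all genes the median is 0 by construction. The lower and upper quartiles of all genes were −0.19 and 0.21 in the RNA-alone pair, and −0.16 and 0.14 in the joint pair. On plain RPM, where the median is not subtracted, the summed subunit level was 0.774 times as high (0.709 to 0.843) after tagmentation in the RNA-alone pair and 0.786 times (0.730 to 0.847) in the joint pair. Relative to the median gene, the log2 ratio of the sum was 0.07 (−0.06 to 0.19) in the RNA-alone pair and −0.25 (−0.36 to −0.15) in the joint pair.

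For most subunits the counting interval of the relative log2 ratio held 0. In the RNA-alone pair it held 0 for 7 of 9 and lay above it for POP7 (0.22 to 1.07) and below it for POP1 (−0.71 to −0.06). In the joint pair it held 0 for 6 of 9 and lay below it for POP7 (−1.12 to −0.34), RPP14 (−0.66 to −0.19) and RPP40 (−1.11 to −0.15). On this scale no subunit had an interval on the same side of 0 in both pairs. On plain RPM the median gene was itself lower after tagmentation, at log2 ratios of −0.44 in the RNA-alone pair and −0.09 in the joint pair. On that scale the fold was below 1 for 8 of 9 in the RNA-alone pair and for 9 of 9 in the joint pair, and the intervals of 3 subunits lay below 1 in both. These were POP1 (0.432 to 0.699 and 0.680 to 0.981), RPP14 (0.545 to 0.817 and 0.584 to 0.817) and RPP38 (0.630 to 0.921 and 0.695 to 0.972). The share of all genes with such intervals was not counted on either scale, so nothing particular to the subunits is read from these counts. RPP30 and POP4 were the only subunits above the median gene in both pairs, at 0.21 and 0.07 for RPP30 and at 0.21 and 0.01 for POP4, and all these intervals held 0.

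**Figure D3:**
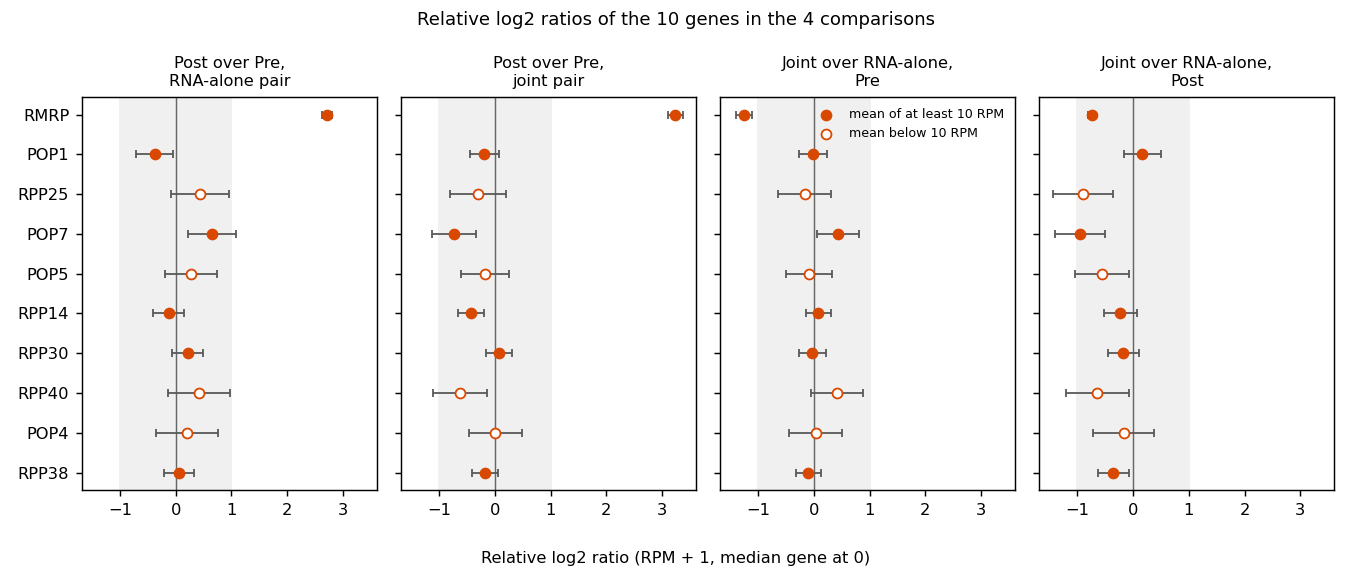
Relative log2 ratio of RPM + 1 of the 10 genes in the 4 comparisons, with the median gene at 0, exact 95% counting intervals as bars and the span of less than 2-fold shaded. RMRP lies at 2.72 and 3.24 for Post over Pre and at −1.26 and −0.74 for joint over RNA-alone, while every protein subunit lies within the shaded span.

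The comparisons of joint with RNA-alone libraries use the same 4 libraries and are given beside the others. RMRP was lower with DNA profiling in both orders, at 0.422 times the RPM (0.379 to 0.468) in Pre and 0.777 times (0.745 to 0.809) in Post. Its relative log2 ratios were −1.26 (−1.41 to −1.11) in Pre, where no gene among the 11564 was lower, and −0.74 (−0.80 to −0.68) in Post. RMRP was called lower in Pre, as were 0.0173% of all genes, and was not called in Post, where 2.32% of all genes were called lower. Called higher were 0% of all genes in Pre and 0.0432% in Post, with 0 of the 6 genes that could be called among them, which is near the background.

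The protein subunits had a median relative log2 ratio of −0.02 with DNA profiling in Pre (0.0087 without subtraction of the median gene) and of −0.35 in Post (0.024 without it), and none was called. In Pre they lay between −0.16 for RPP25 and 0.43 for POP7, and the interval of POP7 alone did not hold 0 (0.06 to 0.81). In Post they lay between −0.96 for POP7 and 0.17 for POP1, 8 of 9 lay below the median gene, and 5 of 9 had intervals below 0. These were POP7 (−1.40 to −0.51), RPP25 (−1.44 to −0.36), RPP40 (−1.21 to −0.08), POP5 (−1.04 to −0.08) and RPP38 (−0.63 to −0.08). Over all genes 50% lay above the median gene by construction, and the share with intervals below 0 was not counted. Among the 925 genes with a place in the annotation that span less than 10 kb and averaged at least 10 RPM, 75 lay above the median gene. POP7, RPP25, RPP40 and POP5 also span less than 10 kb, though only POP7 of these passed that mean, and RPP38 is longer. That share is of sides of the median gene and not of intervals, so nothing particular to the subunits is read from these counts. On plain RPM in Post, 5 of 9 (POP1, POP4, RPP14, RPP30 and RPP38) were instead above 1, with POP7 alone having an interval below 1 (0.455 to 0.901) and POP1 alone one above it (1.17 to 1.91). The sign of these medians depends on the centring, while RMRP was lower on both scales.

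The ratios of the subunits differed with the length of their genes, which were split at a limit chosen after the values were seen. The 4 subunit genes that span less than 10 kb, POP5, POP7, RPP25 and RPP40, had a median relative log2 ratio of 0.43 for Post over Pre in the RNA-alone pair, and the 5 longer ones, POP1, POP4, RPP14, RPP30 and RPP38, had 0.06. In the joint pair the same medians were −0.47 and −0.18. The shorter genes and POP4 also had the lowest means of the subunits, between 5.68 and 10.3 RPM. Of the shorter genes, only POP7 in the RNA-alone pair, and POP7 and RPP40 in the joint pair, had intervals that did not hold 0. Among all genes with a place in the annotation, 925 spanned less than 10 kb and had medians of 0.38 and −0.28, and 9311 longer genes had −0.03 and 0.01. The difference of the shorter from the longer genes was 0.36 for the subunits and 0.40 for all genes in the RNA-alone pair, and −0.29 for both in the joint pair. With DNA profiling against RNA only, it was 0.17 for the subunits and 0.12 for all genes in Pre, and −0.60 and −0.57 in Post. RMRP, at 264 bases one of the 925, lay above the other 924 in both pairs, and below all of them with DNA profiling in Pre. Only 10236 of the 11564 genes had a place, so others may be as short. AC007952.4 and AL137798.2, at 3.41 and 3.18 above RMRP in the RNA-alone pair, had none, nor had HIST1H2BD at 2.68. The part that gene length, or something that goes with it, has in these values was not tested.

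**Figure D4:**
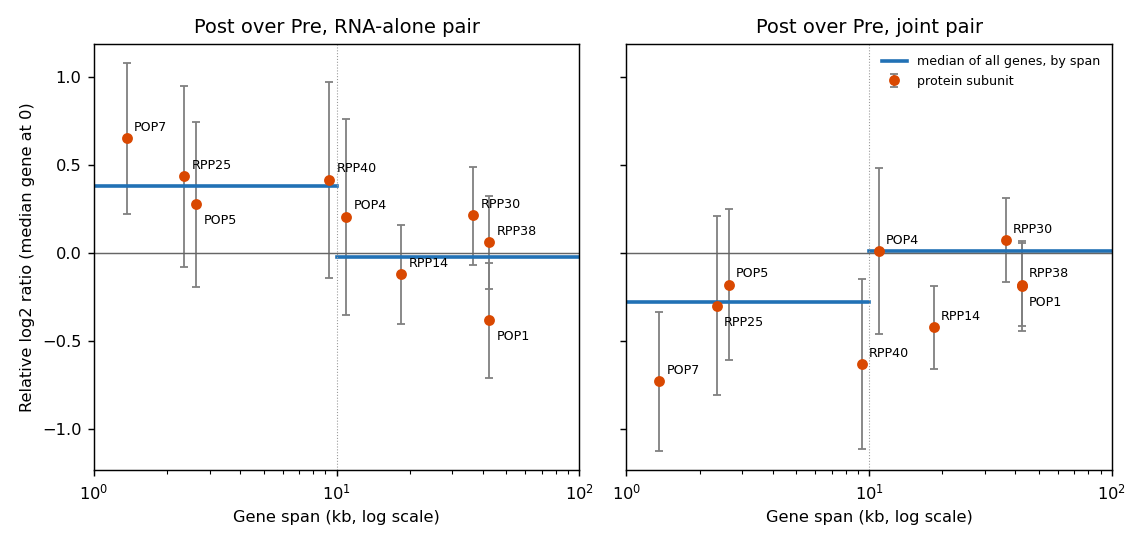
Relative log2 ratio of Post over Pre against the span of the gene (kb, log scale) for the 9 protein subunits, with exact 95% counting intervals, in the RNA-alone pair (left) and the joint pair (right). The blue lines are the medians of all genes under 10 kb and of 10 kb or more, 0.38 and −0.03 on the left and −0.28 and 0.01 on the right, and the subunits under 10 kb lie above 0 on the left and below 0 on the right.

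Of the genes within 20 kb of RMRP, only ARHGEF39 averaged at least 10 RPM, and it was not called. ARHGEF39, a guanine nucleotide exchange factor gene whose end lies 857 bases from RMRP on the same strand, had 14.1 and 13.2 RPM in the Pre libraries and 10.7 and 13.0 RPM in the Post libraries, and relative log2 ratios of 0.07 in both pairs. CCDC107, on the other side of the shared upstream stretch, had 7.25 and 8.26 RPM in the Pre libraries and 4.71 and 6.24 RPM in the Post libraries, with relative log2 ratios of −0.09 and −0.26. CD72, a gene of a B cell surface protein, was at 3.14 to 4.46 RPM. SIT1 had 3 counts or fewer and CA9 had 5 to 11 counts in each library. The other gene models within 20 kb, RN7SL22P and 2 lncRNA genes, are not among the symbols in the files used here.

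The 5 genes whose pattern over the 4 libraries was nearest to that of RMRP were HIST1H2BD, AL137798.2, AC007952.4, SLCO5A1 and AL627171.2, in this order. The measure was the Euclidean distance between the 4 centred log2 values, which was 1.03 for HIST1H2BD, a replication-dependent histone gene, and 1.42 for AL627171.2, against a median of 3.16 over all genes. HIST1H2BD had relative log2 ratios of 2.68 and 1.79 for Post over Pre in the RNA-alone pair and the joint pair. AC007952.4 had 3.41 and 2.29, AL137798.2 had 3.18 and 1.86, SLCO5A1, a solute carrier gene, had 2.01 and 1.83, and AL627171.2 had 1.88 and 1.42. RMRP was the only one of these with a larger value in the joint pair than in the RNA-alone pair, and the distances rest on 4 libraries. Histone genes have near-identical copies, so the counts of HIST1H2BD are uncertain.

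**Figure D5:**
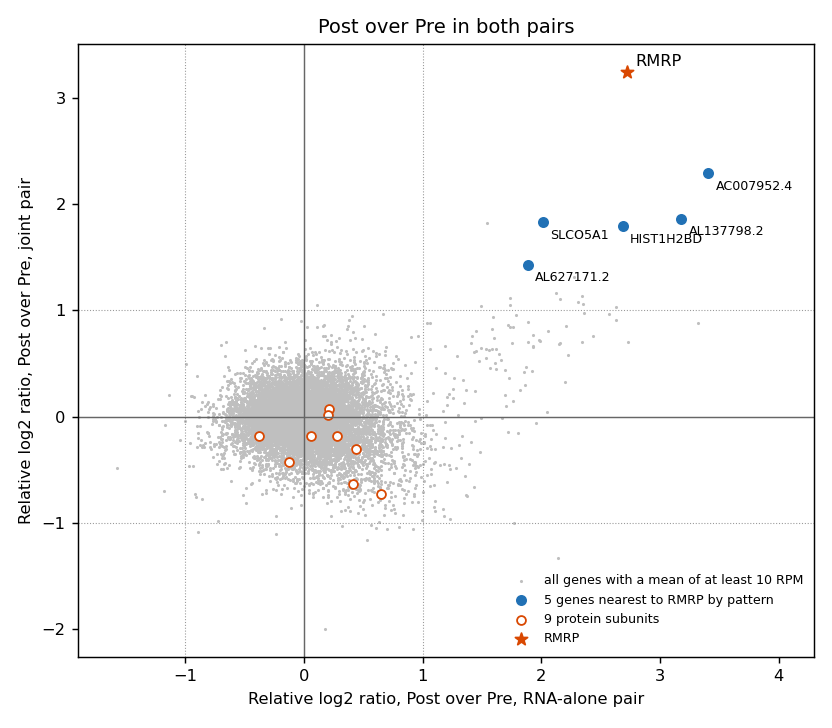
Relative log2 ratio of Post over Pre in the RNA-alone pair (horizontal) against the joint pair (vertical) for the 11564 genes that averaged at least 10 RPM (grey), with dotted lines at 2-fold. RMRP (star) lies at 2.72 and 3.24, its 5 nearest genes by pattern (blue) lie between 1.88 and 3.41 and between 1.42 and 2.29, and the 9 protein subunits (open circles, 4 of them below that mean) lie within 2-fold of the median gene.

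Other genes of the pathway were read from lists and gave no further member called in both pairs. RPP21, a protein usually assigned to RNase P alone, had relative log2 ratios of 0.72 for Post over Pre in the RNA-alone pair and −0.25 in the joint pair. RPP25L, a paralog of RPP25, had 0.76 and −0.47. RPPH1, the RNA of RNase P, is not among the symbols in the files used here, nor are the other 22 RNAs made by RNA polymerase III on the list, such as RN7SK and RNU6-1. Of 35 listed small nuclear and nucleolar RNAs made by RNA polymerase II, TERC, the telomerase RNA, was the only one measured. It had 29 and 32 counts in the Pre libraries and 48 and 57 in the Post libraries, and relative log2 ratios of 1.499 (interval 0.93 to 2.06) and 0.63 (0.10 to 1.16). Its mean of 4.96 RPM is below the limit for a call.

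No mRNA of the listed proteins that make or process these RNAs was called for Post over Pre. Over 18 subunits of RNA polymerase III, 15 of them past the filter, the median relative log2 ratio for Post against Pre was 0.08 in the RNA-alone pair and −0.18 in the joint pair, with 0 called in either, against the shares of all genes given above (1.33% and 0.156% higher, 0.0519% and 0.0951% lower). POLR3G, the first of them by mean RPM and a form typical of pluripotent cells, had 0.07 and −0.05, POLR1C had −0.12 and −0.20, POLR3A had −0.29 and −0.23, and POLR3E had −0.01 and 0.05. Over 10 factors of the upstream promoter type that RMRP uses, 8 past the filter, the medians were 0.02 and −0.01, with 0 called, against the same shares. Counts of 0 among so few genes are near the background. POU2F1, which binds the octamer, had −0.12 and 0.05, BDP1 had −0.05 and 0.17, SNAPC3 had 0.09 and −0.25, and ZNF143 had −0.14 and 0.01. With DNA profiling against RNA only, the medians in Pre and Post were 0.04 and −0.11 for the polymerase subunits and 0.04 and −0.05 for the promoter factors. The only list gene called there was POLR2L, a subunit shared by the 3 nuclear RNA polymerases, which was lower in Post with −1.43, as were 2.32% of all genes.

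Over 20 factors of ribosomal RNA processing, 19 past the filter, the medians of Post over Pre were −0.13 and −0.29, with 0 called in the RNA-alone pair or the joint pair. Beside this stand 1.33% and 0.156% of all genes called higher and 0.0519% and 0.0951% lower, so 0 is near the background. DDX21, a nucleolar helicase, had 0.15 and −0.44, XRN2, an exonuclease, had 0.10 and 0.01, PDCD11 had −0.16 and −0.06, and WDR12 had −0.17 and −0.08. Among 5 genes of mitochondrial RNase P and of the other end of tRNA processing, 4 past the filter, the medians were 0.04 and −0.41, with 0 called, again near the background. PRORP, the nuclease of the mitochondrial enzyme, had −0.22 and −0.07, ELAC2 had 0.36 and 0.59, TRMT10C had −0.10 and −0.53, and HSD17B10 had 0.68 and −0.44. SSB, the La protein that binds the U run of new polymerase III transcripts, had 0.19 and −0.45, and NEPRO, a nucleolar protein that binds RMRP, had 0.48 and −0.41. Neither was called. With DNA profiling the medians in Pre and Post were 0.01 and −0.14 for the processing factors, 0.22 and −0.09 for the mitochondrial and tRNA genes, and 0.29 and −0.48 for SSB and NEPRO.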

How the data were processed

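Nuclear poly(A)-primed RNA was measured in 4 libraries of H9 cells, grouped by the titles of the samples. The authors aligned reads to GRCh38, removed duplicates and deposited counts per gene symbol, whole numbers with no normalization. Per the labels, the tools included STAR 2.7.11b, SAMtools, Bowtie2 2.5.3, Bowtie 1.3.1 and Trim Galore 0.6.10. In the methods for single-cell libraries, Trim Galore removed adapters, Bowtie assigned barcodes, STAR aligned RNA and Bowtie2 aligned DNA. The annotation and the strand setting of the counting are not given in the sources used here. A further 60 barcode columns that no label assigns to a condition were not used.

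Counts were divided by library totals (RPM), log2 ratios were taken with a pseudocount of 1 RPM, and the median of genes averaging at least 10 RPM was subtracted. Calls are by size (2-fold), without p-values. Intervals are exact (Poisson for levels, Clopper-Pearson on the paired counts for ratios, 95%), apart from those of a difference between pairs, which use a normal approximation. All assume independent counts. Members and 10 gene lists were chosen with earlier results of these data known. Named are all members, lists of up to 4 measured genes whole, the 4 genes of highest mean RPM of longer lists, any list gene called in both pairs, neighbours within 20 kb or overlapping a member, and the 5 genes nearest to RMRP by pattern. POLR2L was named after its value was seen. Places, lengths and transcripts are from GENCODE release 44, promoter windows from RefSeq on the same build. Scripts were tested on simulated counts. R 4.3.3, edgeR 4.0.16 and DESeq2 1.42.0 (alternative scalings only), matplotlib 3.10.9, scipy 1.17.1, pandas 2.3.3, numpy 2.4.6 and Python 3.11.15 were used. Alternatives were other scalings, pseudocounts, filters and folds, no centring, and thinning to the smallest total.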

Additional observations from a re-analysis of the deposited data

Results flagged for a closer look

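Relative to the median gene, POP7 lay on opposite sides of 0 in the pairs that share no library. Its relative log2 ratio for Post against Pre was 0.65 in the RNA-alone pair and −0.73 in the joint pair, a difference of −1.38 (counting interval by normal approximation −1.94 to −0.82). The same 4 values give 0.43 for joint over RNA-alone in Pre and −0.96 in Post, a difference of −1.39, so these are one pattern and not separate ones. On plain RPM its fold in the RNA-alone pair was 1.17 (0.848 to 1.62), an interval that holds 1, and in the joint pair 0.533 (0.392 to 0.720). With 1 library per condition the difference was not tested. The counts behind it were 89 and 120 in the Pre libraries without and with DNA profiling and 71 and 72 in the Post libraries. POP7 has the shortest span of the 9 protein subunit genes, 1366 bases, and the 925 genes under 10 kb had medians of 0.38 and −0.28 in the same pairs. The pattern was not particular to POP7. RPP40 had 0.42 and −0.63, a difference of −1.05 (−1.75 to −0.35), and RPP25 had 0.44 and −0.30, a difference of −0.74 (−1.42 to −0.05). The difference of every other subunit had an interval that held 0. POP7 alone had intervals of both ratios that excluded 0 on opposite sides.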

How the results depend on the processing

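Each result was computed under other scalings, pseudocounts, filters and folds. A value of RMRP was held against its counting interval, and a subunit median against that of the single gene that stood at the median. By this rule, or within 1.5 times their count, 144 of 152 values stayed, and no called gene changed sign. This total is not a measure of robustness. Subtraction of the median gene cancels nearly all that another scaling changes, so those settings could hardly move a value. Many of the values are counts of called genes that were 0 under both settings. Without centring on the median gene, RMRP fell to 2.28 for Post over Pre in the RNA-alone pair and stood at −0.36 for joint over RNA-alone in Post. The median of the protein subunits then went to −0.23 and 0.024 in these comparisons, a change of sign that follows from the median gene's own −0.44 and 0.38. At 1.5-fold, 2 of the genes (RMRP and POP7) in place of 1 were called higher for Post over Pre in the RNA-alone pair. In the joint pair 1 (POP7) was called lower, and 2 (RMRP and POP7) were called lower for joint over RNA-alone in Post. The shares of all genes called so were 5.26%, 2.02% and 7.63%. POP7 averaged 10.3 RPM and passed the filter through joint Pre and RNA-alone Post, at 13.4 and 11.1 RPM against 9.49 and 7.14 RPM in the others. RMRP was chosen by these values, so nothing is read from these counts. With a pseudocount of 0.1 RPM, 1 of the 6 genes past the filter was called lower for joint over RNA-alone in Post. The share of all genes called at that setting was not counted, so nothing is read from it. Over all alternatives RMRP lay between 2.28 and 2.77 in the RNA-alone pair and between 3.15 and 3.26 in the joint pair. No paired analysis was possible because the labels carry no replicate numbers and no result comes from a test. The Pre and Post libraries are set side by side within each pair, and a fit of both factors was not run. Counts of 32 to 120 of POP4, POP5, POP7, RPP25 and RPP40 limit what their ratios can show.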
